A study of Bos taurus with 24 samples.

Results

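The genes described here belong to the agouti and melanocortin system: ASIP, MC1R, ATRN, MGRN1, POMC and KITLG, together with the 2 stretches without a gene symbol that touch ASIP on chromosome 13. They were picked by symbol and by position, which gave 8 of the 59846 rows of the count tables (6 of the 27550 rows with a gene symbol). Fibroblasts, which build the connective tissue of the dermis, had been grown from the shoulder skin of 4 Angus (beef) and 4 Holstein (dairy) heifers of a like age. Each culture gave RNA before lipopolysaccharide (LPS, a bacterial cell wall component, at 100 ng/ml) and again 2 h or 8 h into the exposure, which made 24 samples in 6 groups of 4 animals. All cultures were untreated at 0 h, and no untreated sample at 2 h or 8 h was analysed here, so time in culture and LPS cannot be told apart. Each animal stands for 1 culture, and duplicate wells had been pooled before RNA was extracted.

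In skin, pigment cells (melanocytes) carry the receptor encoded by MC1R. Melanocortin peptides cut from the product of POMC activate it through cyclic AMP and favour black pigment. Agouti signalling protein, encoded by ASIP and secreted by dermal cells, blocks the receptor and favours yellow or red pigment. ATRN encodes attractin, a transmembrane protein that agouti needs to act, and MGRN1 encodes mahogunin, a ubiquitin ligase of the same genetic pathway. KITLG encodes the ligand of the receptor KIT, on which melanocyte survival and migration depend.

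The libraries held 51014538 to 104406293 counts. A level of 3 counts, taken as the smallest the depth could show, stood for 0.029 to 0.059 CPM (a library's counts put on a common total), and such limits cover counting error only. Levels are given as CPM after TMM scaling (edgeR's trimmed mean method). The counting of COL1A1 set 4 libraries apart: each of its counts stood for 66.2 to 67.1 aligned bases there and for 111.8 to 119.0 elsewhere. They are the 0 h libraries of Angus animal 4 and of Holstein animals 2 and 4, and the 2 h library of Angus animal 3. Fits without them are given beside the members whose calls they changed. At 0 h such a fit compares Angus animals 1, 2 and 3 with Holstein animals 1 and 3. A call lost in it cannot be told apart from the loss of animals. The fibroblast label was borne out by the collagen genes COL1A1, COL1A2 and COL3A1, whose mean levels were 13900, 26300 and 18900 CPM.

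The first question was whether the breeds differ in these genes at rest and under LPS. A row was taken as past the threshold when it met 3 conditions: a false discovery rate (FDR) under 0.05 by edgeR's likelihood-ratio test, a difference of 2-fold or more, and a mean level above 1 CPM. Of the 7 members that could be tested, ASIP and the interval after it passed at 0 h and at 8 h, and ASIP passed at 2 h. The interval met the filter of 1 CPM in 50% of the samples only through Angus, so it had to differ, and its place in this count is no support. Over all rows tested, 3.82% passed at 0 h, 4.45% at 2 h and 3.25% at 8 h. An unadjusted p under 0.05 by the same test was met by 26.7%, 32.1% and 29.3% of them. The share of all rows whose levels do not overlap between the breeds was not counted. Where a lack of overlap is given below, it is a description only.

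ASIP (chromosome 13, 64213312 to 64239964 on UMD v3.1, plus strand) was far higher in Angus. At 0 h the Angus animals 1 to 4 stood at 21.3, 34.5, 40.6 and 35.5 CPM, and the Holstein animals 1 to 4 at 1.38, 1.61, 3.25 and 3.26 CPM. At 2 h the values were 23.7, 37.6, 36.9 and 37.2 CPM in Angus and 1.41, 1.95, 3.18 and 2.41 CPM in Holstein. At 8 h they were 20.3, 35.6, 35.8 and 32.7 CPM in Angus and 1.28, 1.74, 3.35 and 2.93 CPM in Holstein. The breeds did not overlap at any hour, and the lowest Angus culture was 6.52-, 7.47- and 6.08-fold above the highest Holstein culture at 0 h, 2 h and 8 h. In counts, the row held 1434 to 3760 per Angus library and 92 to 298 per Holstein library, so ASIP RNA was well above the detection limit in both breeds.

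**Figure D1:**
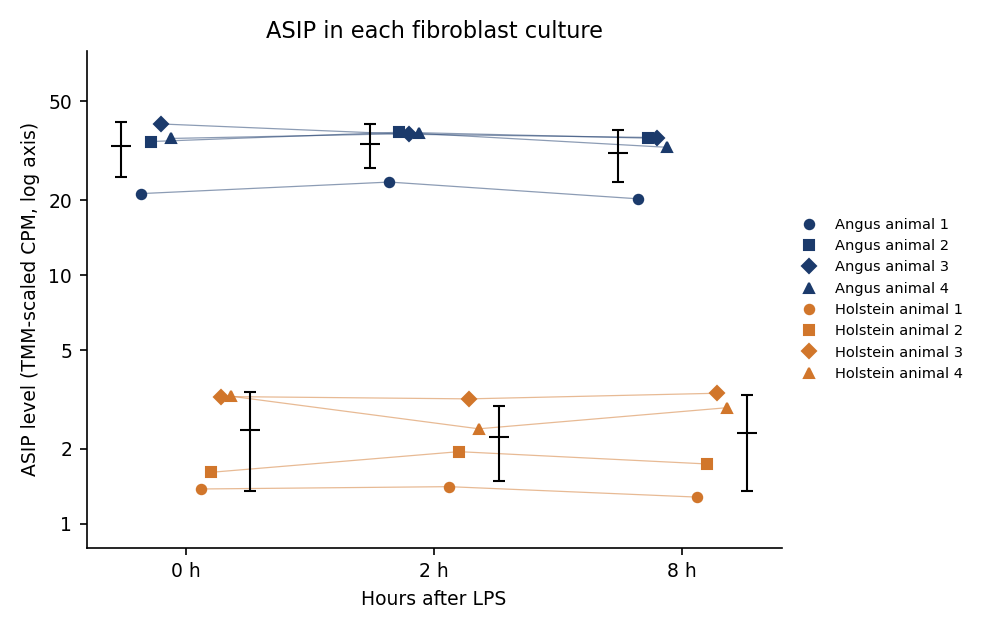
ASIP level in each culture, as TMM-scaled CPM on a log axis, against hours after LPS. Each symbol is 1 animal joined over time by a thin line, and black bars are the mean ± SD of 4 animals. The 12 Angus values lie between 20.3 and 40.6 CPM and the 12 Holstein values between 1.28 and 3.35 CPM.

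Mean ASIP levels were 33.0 ± 8.23 CPM in Angus and 2.37 ± 1.02 CPM in Holstein at 0 h (SD, n = 4 each). The fitted log2 fold change of Holstein against Angus was -3.79 ± 0.317 (SE, edgeR likelihood-ratio test, FDR = 2.86e-23), a 13.9-fold difference. At 2 h the means were 33.9 ± 6.78 and 2.24 ± 0.75 CPM, and the log2 fold change was -3.93 ± 0.258 (FDR = 1.82e-38). At 8 h they were 31.1 ± 7.31 and 2.32 ± 0.975 CPM, with a log2 fold change of -3.74 ± 0.315 (FDR = 9.24e-23). Ordered by unadjusted p, ASIP was the third of 20385 rows at 0 h, the first of 20184 at 2 h and the second of 20679 at 8 h. Without the libraries set apart by COL1A1, the log2 fold change was -3.79 at 0 h and -3.88 at 2 h. In bulk RNA, fewer cells that make a transcript and less of it per cell cannot be told apart.

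Within a breed, ASIP varied less over the hours than between animals. Angus animal 1 was the lowest Angus culture at every hour, and Holstein animal 1 the lowest Holstein culture. The SD of log2 ASIP between animals was 0.37 in Angus and 0.59 in Holstein, against 0.09 and 0.14 between the hours of the same animal. No Angus culture varied by more than 1.17-fold over the hours and no Holstein culture by more than 1.35-fold, whereas the highest and lowest animals differed by 1.73-fold in Angus and 2.41-fold in Holstein.

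A second readout in the tables, the number of aligned bases behind each count, also separated the breeds in ASIP. It was looked at after the ASIP levels had been seen. Angus ASIP held 63.2 to 68.5 covered bases per count in all 12 libraries (mean 65.9), and Holstein ASIP 95.8 to 99.3 (mean 98.3). The value in Angus was thus close to that of ATRN, a long gene with 63.4 to 66.9 covered bases per count in either breed, and the value in Holstein was close to that of the stretches without a gene symbol. Across rows with at least 50 counts in each library, the median was 76.8 for the 12107 rows with a symbol and 97.4 for the 6237 without. The summed counts were 1.5 to 1.712 times the matched reads, so a read could count more than once.

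The breed difference in covered bases per count was a log2 ratio of 0.58 for ASIP, the fourth in size among 18344 rows, of which 99% differed by under 0.14. The animals of the breeds did not overlap in 6.72% of these rows. The tables do not separate exons from introns or spliced from unspliced reads, so what the value reflects in ASIP was not tested. With covered bases scaled to the library in place of counts, the log2 difference between the breeds in ASIP came to -3.29, -3.31 and -3.24 at the 3 hours, smaller than the difference in counts. The greatest depth over any base of ASIP was 211 to 612 in Angus and 14 to 44 in Holstein.

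**Figure D2:**
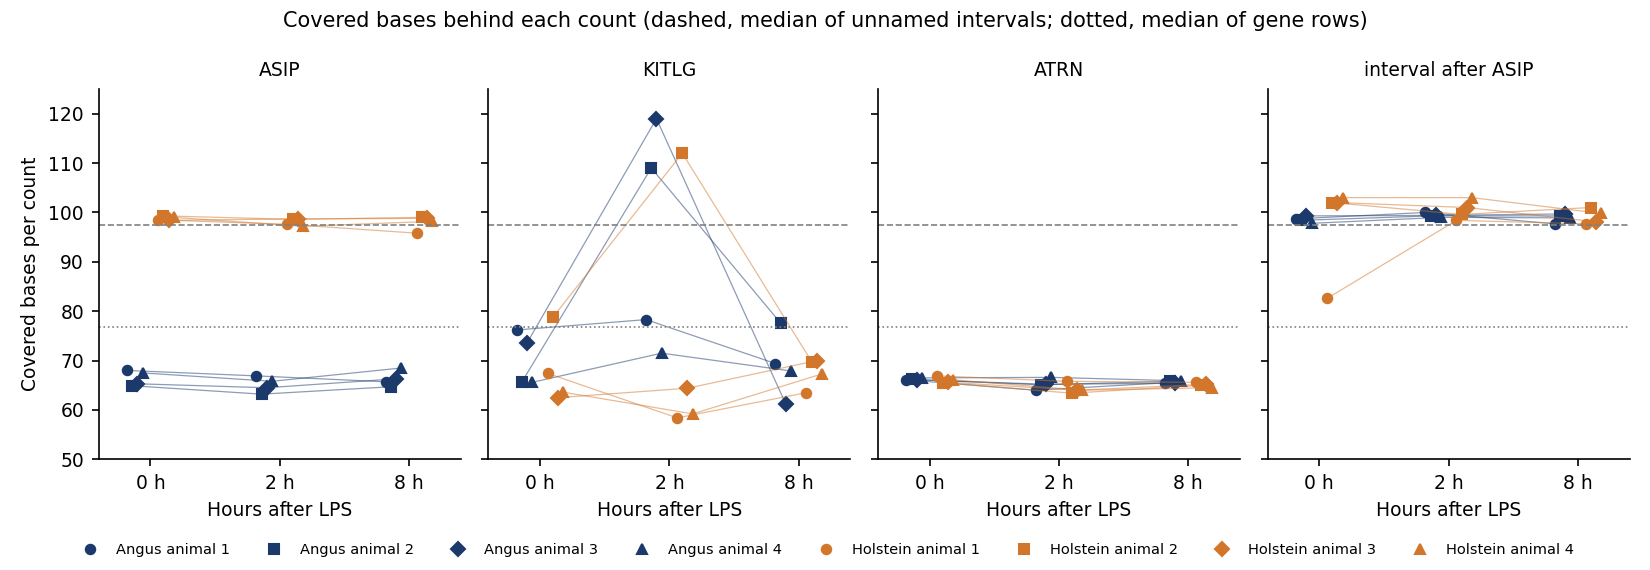
Covered bases per count of ASIP, KITLG, ATRN and the interval after ASIP in each culture, against hours after LPS. Each symbol is 1 library, the dashed line is the median of stretches without a symbol (97.4) and the dotted line that of rows with a symbol (76.8). ASIP falls into separate bands by breed at every hour, ATRN lies in 1 band, and KITLG leaves its band in 3 libraries at 2 h.

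The stretches on either side of ASIP behaved differently from each other. The interval after ASIP (chromosome 13, 64239965 to 64258555), which begins at the base following the gene on the side where its transcript ends, was higher in Angus. At 0 h the Angus animals 1 to 4 had 1.39, 1.75, 1.74 and 1.65 CPM, and the Holstein animals 0.135, 0.585, 0.458 and 0.595 CPM. The lowest and highest values at 2 h were 1.04 and 1.54 CPM for Angus, 0.256 and 0.473 CPM for Holstein. The same at 8 h were 1.24 and 1.98 CPM, 0.298 and 0.589 CPM. The breeds again did not overlap. Since only the Angus cultures reached 1 CPM, the row could be tested only because it was higher there, and leaving out any 1 Angus animal dropped it from the test. The log2 fold change was -1.89 ± 0.354 at 0 h (SE, edgeR, FDR = 1.82e-05). It was -1.65 ± 0.26 at 2 h (FDR = 2.92e-08) and -1.65 ± 0.268 at 8 h (FDR = 2.12e-07). In the fit without a filter it was -1.90, -1.65 and -1.66 (FDR = 7.39e-05, 1.5e-06 and 3.13e-06). The 2 h result missed the threshold only because the mean level was 0.787 CPM. These are low counts, 63 to 171 per Angus library and 9 to 59 per Holstein library.

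The interval before ASIP (chromosome 13, 64069301 to 64213311), 144.0 kb long, held 47 to 178 counts per library and overlapped between the breeds at every hour. Its log2 fold changes were 0.00 ± 0.208, -0.19 ± 0.196 and 0.06 ± 0.19 at 0 h, 2 h and 8 h (SE, edgeR, FDR from 0.525 to 1.0). The 95% interval at 0 h ran from -0.41 to 0.41, so a difference of the size seen in ASIP was outside it.

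Among 34 rows that reach within 500 kb of ASIP, 26 could be tested at 0 h, 27 at 2 h and 26 at 8 h. Only ASIP and the interval after it passed the threshold in these fits (2, 1 and 2 rows at the 3 hours). With FDR under 0.05 alone, 4, 5 and 5 rows of the locus passed, where 13.8%, 20.1% and 16.5% of all rows did. Next to the interval after ASIP lies AHCY, which encodes S-adenosylhomocysteine hydrolase, an enzyme of the methionine cycle. AHCY was lower in Holstein by less than 2-fold, with log2 fold changes of -0.38 (FDR = 0.0235), -0.45 (FDR = 0.0116) and -0.39 (FDR = 0.00919).

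E2F1, a cell cycle transcription factor at the far end of the window, was also lower in Holstein, with log2 fold changes of -0.80 (FDR = 0.0332), -0.92 (FDR = 0.0115) and -0.72 (FDR = 0.027). An unnamed interval between CHMP4B and RALY (chromosome 13, 63849784 to 63953595) differed at 2 h (-0.71, FDR = 0.032) and at 8 h (-0.92, FDR = 0.00132) but missed the limit at 0 h (-0.37, FDR = 0.292). The other 13 genes tested, PXMP4, ZNF341, CHMP4B, RALY, EIF2S2, ITCH, LOC782136, DYNLRB1, MAP1LC3A, PIGU, LOC511340, NCOA6 and GGT7, had FDR above 0.05 at each hour. EIF2S2, the nearest gene before ASIP, had log2 fold changes of -0.17, -0.11 and -0.12. LOC782136 lies inside ITCH, and whether the 2 rows share reads was not tested. LOC786401 and LOC100295994 were under the filter on low counts.

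**Figure D3:**
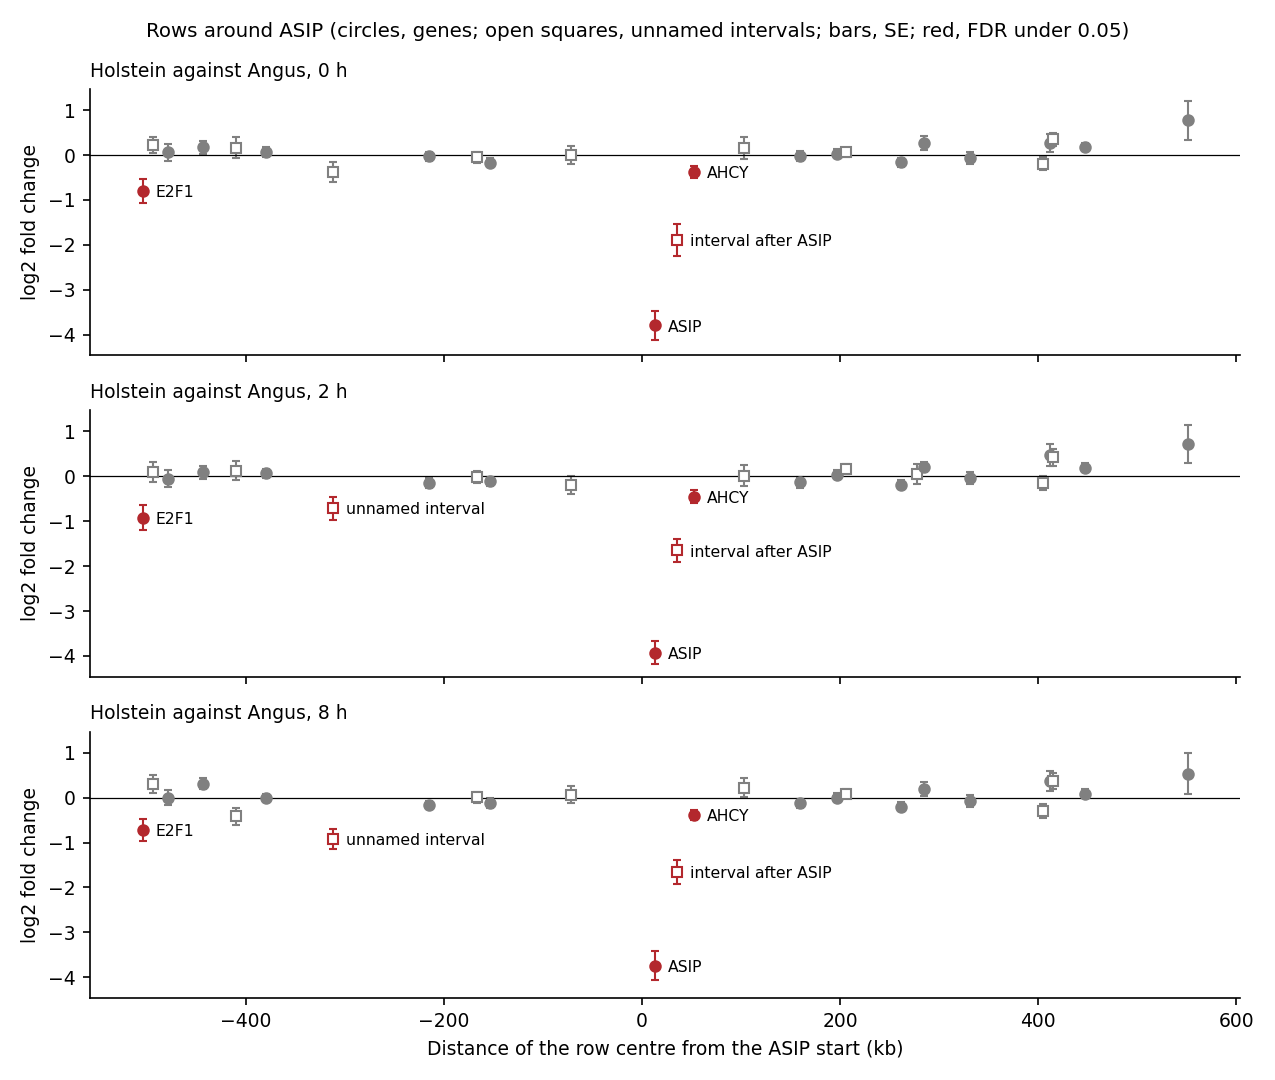
Log2 fold change of Holstein against Angus for the rows around ASIP at 0 h, 2 h and 8 h, against the distance of the row centre from the ASIP start in kb. Circles are genes, open squares are intervals without a symbol, bars are SE and red marks FDR under 0.05. ASIP lies near -3.8, the interval after it between -1.65 and -1.89, and the other rows between -0.92 and 0.77.

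Attractin and mahogunin, through which agouti acts, differed little between the breeds. ATRN (chromosome 13, 52003104 to 52192979, minus strand) stood at 43.4, 43.7, 39.1 and 39.0 CPM in Angus and 38.7, 47.5, 42.9 and 46.8 CPM in Holstein at 0 h. At 2 h it stood at 38.8, 37.4, 38.7 and 34.9 CPM in Angus and 42.6, 47.3, 42.3 and 47.2 CPM in Holstein, and here the breeds did not overlap. At 8 h the values were 34.7, 35.6, 35.2 and 34.0 CPM in Angus and 34.7, 49.0, 41.8 and 49.4 CPM in Holstein. Holstein animal 1 lay among the Angus cultures at 8 h and the other Holstein cultures above them. The log2 fold changes were 0.09 ± 0.113, 0.25 ± 0.103 and 0.33 ± 0.133 (SE, edgeR, FDR = 0.657, 0.0611 and 0.0679), and the 95% intervals reached no further than 0.59. At 2 h the FDR was 0.0366 with edgeR's F test and 0.0069 with DESeq2, and at 8 h DESeq2 gave 0.0417, all under the 2-fold limit. With all 24 samples in 1 model the FDR was 0.0416 at 2 h and 0.0105 at 8 h. Without Angus animal 3, whose 2 h library is the one set apart there by COL1A1, the 2 h value was 0.28 with FDR = 0.0389, and without Holstein animal 1 the 8 h value was 0.43 with FDR = 0.00237. The ATRN calls thus depend on the fit and on single animals.

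A stretch of 13.9 kb without a symbol (chromosome 13, 51989203 to 52003103) touches ATRN on the side where its transcript ends. It held 1373 to 3126 counts per library and was examined after the values of ATRN had been seen. The difference there had the same sign and passed the FDR limit at 2 h (log2 fold change 0.34 ± 0.119, FDR = 0.0296) and 8 h (0.38 ± 0.141, FDR = 0.0462), under the 2-fold limit.

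MGRN1 (chromosome 25, 3754935 to 3791614, plus strand) stood at 56.0, 48.6, 61.0 and 55.5 CPM in Angus and 70.0, 67.7, 62.5 and 74.9 CPM in Holstein at 0 h. All Holstein cultures were above all Angus cultures, with a ratio of the means of 1.24. How many of all rows separate in this way was not counted. The log2 fold change was 0.31 ± 0.114 (SE, edgeR, FDR = 0.045), which passed the FDR limit but not the 2-fold limit. The FDR was 0.0589 with edgeR's F test and 0.617 without the libraries set apart by COL1A1, so the call was lost in both. The latter fit had fewer animals and a log2 fold change of 0.26. At 2 h MGRN1 ran from 57.5 to 71.6 CPM (Angus) and from 67.2 to 76.3 CPM (Holstein), and at 8 h from 52.8 to 65.7 and from 59.2 to 71.3 CPM. The breeds overlapped at both hours, with log2 fold changes of 0.15 and 0.16 (FDR = 0.369 and 0.375).

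POMC (chromosome 11, 74109410 to 74116893, plus strand), the precursor of the melanocortin peptides, was present at low level. It held 64 to 182 counts per library. At 0 h it stood at 1.01, 0.951, 1.28 and 1.28 CPM in Angus and 2.04, 1.7, 1.55 and 2.01 CPM in Holstein, without overlap. The log2 fold change was 0.68 ± 0.208 (SE, edgeR, FDR = 0.0141), under the 2-fold limit. Without the libraries set apart by COL1A1, and so with fewer animals, it was no smaller, 0.72, with FDR = 0.264.

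At 2 h POMC stood at 1.5, 1.05, 0.898 and 1.07 CPM in Angus and 1.71, 0.981, 1.33 and 2.47 CPM in Holstein. At 8 h it stood at 1.33, 1.23, 0.91 and 1.01 CPM in Angus and 1.82, 1.09, 1.31 and 1.24 CPM in Holstein. The breeds overlapped at both hours. The log2 fold changes there were 0.52 ± 0.316 (FDR = 0.245) and 0.29 ± 0.238 (FDR = 0.43).

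MC1R (chromosome 18, 14757332 to 14759082, plus strand), the receptor itself, was close to the detection limit. Its row held 1 to 14 counts per Angus library and 5 to 21 per Holstein library, or 0.0165 to 0.172 and 0.0699 to 0.298 CPM. It fell under the filter of 1 CPM in 50% of the samples and was tested only in the fit without a filter. There its unadjusted p was 0.0337 at 0 h and 0.0193 at 2 h, and its log2 fold changes were 1.19 ± 0.572, 1.26 ± 0.55 and 0.57 ± 0.533 (SE, edgeR, FDR = 0.242, 0.144 and 0.581). A difference between the breeds was not detectable at this depth.

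KITLG (chromosome 5, 18317748 to 18377444, minus strand) varied more between animals than any other tested member. At 0 h it stood at 1.15, 1.25, 0.788 and 2.72 CPM in Angus and 2.78, 1.55, 2.08 and 3.73 CPM in Holstein. At 8 h it stood at 1.1, 1.34, 0.816 and 2.35 CPM in Angus and 2.81, 0.957, 2.37 and 2.75 CPM in Holstein. At 0 h the breeds overlapped through Angus animal 4, the highest Angus culture. At 8 h Holstein animal 2 also lay below Angus animals 1, 2 and 4. The log2 fold changes were 0.77 ± 0.414 (SE, edgeR, FDR = 0.214) and 0.68 ± 0.415 (FDR = 0.272). Without the libraries set apart by COL1A1, Angus animal 4 among them, the 0 h difference was 1.19 with FDR = 0.0177. Leaving out Angus animal 4 alone gave 1.25 with FDR = 0.0104, so the 0 h call turns on that library.

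**Figure D4:**
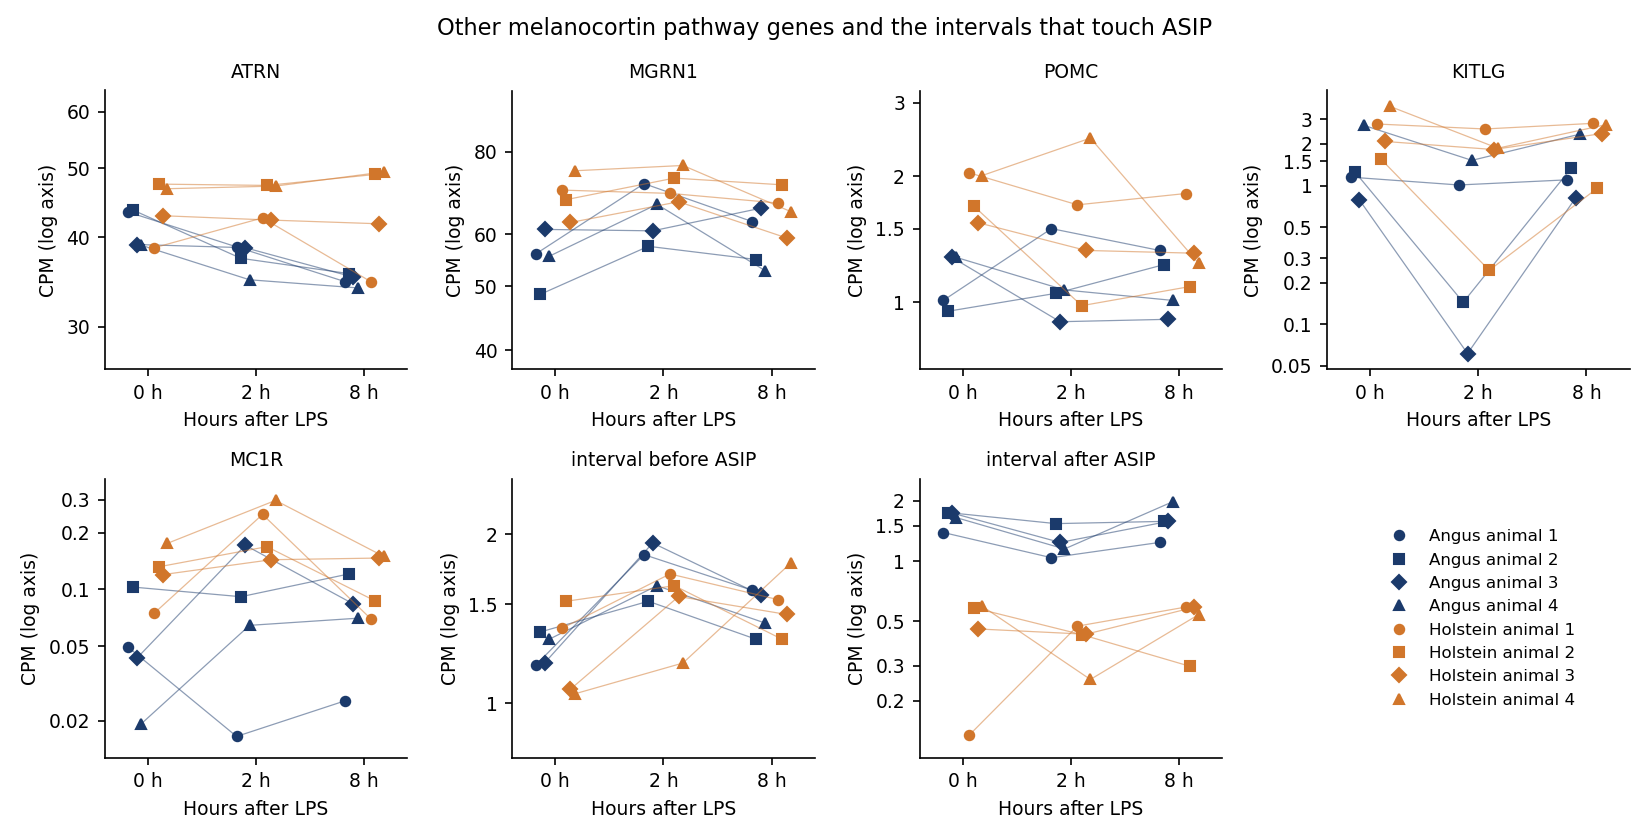
Levels of ATRN, MGRN1, POMC, KITLG, MC1R and the intervals before and after ASIP in each culture, as TMM-scaled CPM on log axes that differ between panels, against hours after LPS. Each symbol is 1 animal joined over time. The interval after ASIP separates the breeds at each hour, and KITLG drops to 0.0615, 0.144 and 0.245 CPM in 3 cultures at 2 h.

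The second question was whether LPS changed these genes. No member passed the threshold in any of the 4 comparisons with 0 h by edgeR's likelihood-ratio test: 0 of 7 in Angus at 2 h and 8 h and 0 of 6 in Holstein at 2 h and 8 h. Of all rows tested, 2.98% and 0.863% passed in Angus and 3.14% and 2.51% in Holstein. At an unadjusted p under 0.05 the count was 1 in Angus at 2 h (the interval before ASIP), 1 in Angus at 8 h (ATRN) and 0 in Holstein at either hour, where 23.2% and 13.5% of all rows in Angus and 25.9% and 24.8% in Holstein were under that limit. Neither edgeR's F test nor DESeq2 put a member past the threshold.

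ASIP did not move with LPS beyond the spread between animals in either breed. In Angus the log2 fold change was 0.04 at 2 h (95% interval -0.41 to 0.49, FDR = 0.964) and -0.09 at 8 h (-0.57 to 0.39, FDR = 0.945, edgeR). In Holstein it was -0.09 at 2 h (-0.81 to 0.63, FDR = 0.951) and -0.03 at 8 h (-0.81 to 0.76, FDR = 0.983). From 0 h to 2 h it was higher in 3 of 4 Angus and 2 of 4 Holstein animals, and from 0 h to 8 h in 1 of 4 and 2 of 4. The intervals exclude a 2-fold change in each breed.

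The difference between the breeds in the response was tested as an interaction. For ASIP it was -0.12 ± 0.435 at 2 h and 0.05 ± 0.479 at 8 h on the log2 scale (SE, edgeR, FDR = 1.0 at both). No member passed in the interaction, 0 of 7 at each hour, where 0.278% and 0.0982% of all rows passed. The count was also 0 at an unadjusted p under 0.05, which 4.39% and 2.93% of all rows met. It was 0 past the threshold with edgeR's F test and with DESeq2. With the animal as a block, again no member passed. In that fit ATRN had an unadjusted p of 0.0284 at 2 h and 0.0108 at 8 h (edgeR likelihood-ratio test, FDR = 0.257 and 0.192). The share of all rows under 0.05 in it is not given here.

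Each animal gave all 3 hours, so the LPS comparisons were also fitted with the animal as a block. This paired fit called many more rows by FDR alone, 35.8% and 20.7% of all rows in Angus at 2 h and 8 h and 35.8% and 35.2% in Holstein. Of the members, 4 of 7 had FDR under 0.05 in Angus at 2 h (KITLG, MGRN1 and the intervals before and after ASIP), 1 of 7 in Angus at 8 h (ATRN), and 1 of 6 in Holstein at each hour (KITLG at 2 h and POMC at 8 h). Without the libraries set apart by COL1A1, a fit chosen after seeing the data, only Holstein animals 1 and 3 kept both hours. In Angus at 2 h only animals 1 and 2 did. Holstein animals 2 and 4, left unpaired, had fallen more than 1 and 3. For KITLG at 2 h the log2 changes were -2.26 and -0.97 against -0.12 and -0.19. For POMC at 8 h they were -0.59 and -0.65 against -0.16 and -0.23. These calls were then lost in Holstein for KITLG (-0.16, FDR = 0.707) and POMC (-0.2, FDR = 0.693), which cannot be told apart from the loss of those animals. The calls were also lost in Angus at 2 h for the intervals before (0.41, FDR = 0.264) and after ASIP (-0.29, FDR = 0.441). In that fit KITLG and MGRN1 in Angus at 2 h had FDR = 0.046 and 0.00127, and ATRN in Angus at 8 h had 0.00715. ASIP was not among the members called with the block, with paired values of 0.05 and -0.08 in Angus and -0.06 and -0.02 in Holstein (FDR from 0.493 to 0.918).

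KITLG had the largest of these changes. At 2 h it stood at 1.01, 0.144, 0.0615 and 1.52 CPM in Angus and 2.56, 0.245, 1.82 and 1.86 CPM in Holstein. It was lower at 2 h than at 0 h in 8 of 8 animals, a pattern shown by 18.3% of rows, but the size was uneven. The fall was 8.68-fold in Angus animal 2 (109 to 11 counts), 12.8-fold in Angus animal 3 (73 to 5 counts) and 6.33-fold in Holstein animal 2 (106 to 16 counts), and between 1.09- and 2.0-fold in the other 5 animals. At 8 h the same 3 cultures were back at 100, 78 and 77 counts.

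By edgeR's likelihood-ratio test without the block, KITLG at 2 h had a log2 fold change of -1.11 ± 0.824 in Angus (FDR = 0.485) and -0.65 ± 0.561 in Holstein (FDR = 0.555). With the block it was -1.80 in Angus (FDR = 0.00503), past the threshold, and -0.90 in Holstein (FDR = 0.0429). In the 3 cultures that fell most, the few KITLG counts left held 109 to 119 covered bases each, against 58.4 to 78.8 in the other 21 libraries. The 270.5 kb stretch without a symbol that touches KITLG on the side where its transcript ends (chromosome 5, 18047254 to 18317747) held 1648 to 3660 counts per library and did not fall with it. Its log2 fold change at 2 h was -0.06 ± 0.13 in Angus and 0.02 ± 0.0957 in Holstein (SE, edgeR without the block, FDR = 0.884 and 0.973). What these 3 libraries share was not tested.

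ATRN was lower in 4 of 4 Angus animals at 8 h, where 21.3% of rows showed this pattern. Its log2 fold change was -0.25 ± 0.101 (edgeR, FDR = 0.18), and -0.25 with the block (FDR = 0.00696). The stretch that touches its transcript end had a log2 fold change of -0.42 ± 0.121 in the same comparison and passed the FDR limit without the block (FDR = 0.0199). In Holstein the ATRN values were 0.02 and -0.00 at 2 h and 8 h (FDR = 0.96 and 0.994), but the interaction did not pass (0.18, FDR = 1.0 and 0.23, FDR = 1.0), so the breeds were not shown to differ in this. In Angus at 2 h the value was -0.14 (FDR = 0.487). A fit chosen after seeing the data, with the block and without the libraries set apart by COL1A1, gave -0.19 there (FDR = 0.0397). Only Angus animals 1 and 2 had both hours in it.

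POMC at 8 h was lower than at 0 h in 4 of 4 Holstein animals, where 27.1% of rows showed this pattern. Its log2 fold change was -0.41 ± 0.221 (edgeR, FDR = 0.245), and -0.42 with the block (FDR = 0.0377). In Angus the value was -0.02 (FDR = 0.988). MGRN1 in Angus at 2 h had a log2 fold change of 0.21 ± 0.127 (FDR = 0.33), and 0.21 with the block (FDR = 0.0263). The interval before ASIP at 2 h had a log2 fold change of 0.47 ± 0.187 in Angus (FDR = 0.0809, and 0.0206 with the block) and of 0.27 ± 0.218 in Holstein (FDR = 0.501).

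**Figure D5:**
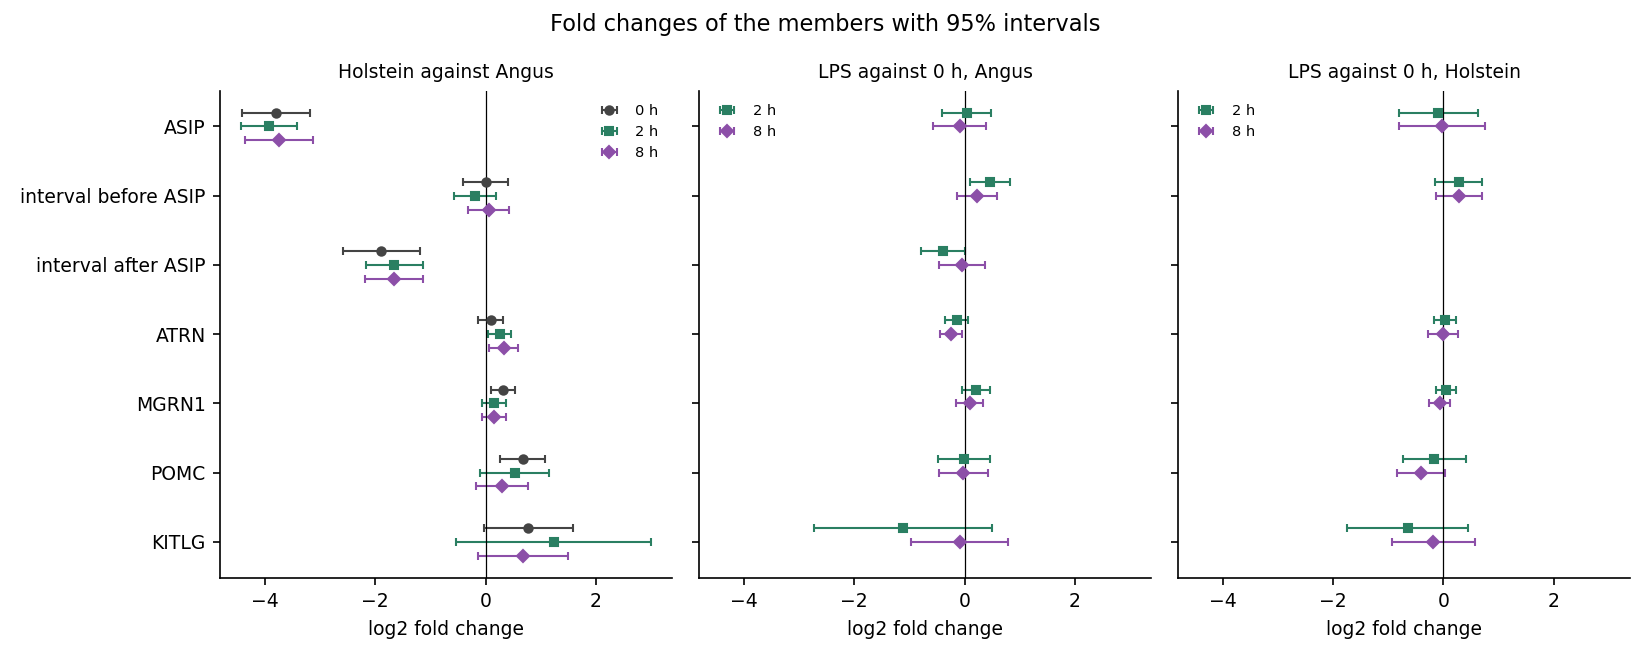
Log2 fold changes of the members with 95% intervals from edgeR without a block, for Holstein against Angus, LPS in Angus and LPS in Holstein. Circles are 0 h, squares 2 h and diamonds 8 h, and the interval after ASIP has no value in Holstein, where it was under the filter. ASIP and the interval after it stand clear of 0 between the breeds and include 0 under LPS.

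Beyond the members, 79 symbols in 5 lists around the pathway were read from the same fits. Of those tested, 2 of 54 passed the threshold between the breeds at 0 h, 2 of 52 at 2 h and 2 of 54 at 8 h, beside 3.82%, 4.45% and 3.25% of all rows. Under LPS, 6 of 51 passed in Angus at 2 h and 2 of 52 at 8 h, beside 2.98% and 0.863% of all rows. In Holstein 7 of 55 passed at 2 h and 5 of 55 at 8 h, beside 3.14% and 2.51%. In the interaction the counts were 0 of 54 at 2 h and 0 of 53 at 8 h by edgeR's likelihood-ratio test (0.278% and 0.0982% of all rows), with 1 and 3 genes at an unadjusted p under 0.05 (4.39% and 2.93% of all rows). The F test also called 0, and DESeq2 called 0 and 1.

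Of the melanocortin ligands, processing enzymes and receptors, the receptors MC2R, MC3R, MC4R and MC5R and the agouti relative AGRP were at or below 0.067 CPM in every library. MRAP2, an accessory protein of melanocortin receptors, was higher in Holstein at 0 h (1.8 ± 0.444 against 0.696 ± 0.44 CPM, log2 fold change 1.37, FDR = 0.0114, not past the threshold with the F test). Without the libraries set apart by COL1A1, and so with fewer animals, it was 1.05 with FDR = 0.46. At 0 h MRAP2 met the filter on low counts through Holstein, its high group, so this call is no support for the list. MRAP2 fell in Holstein at 8 h (-1.64, FDR = 2.05e-06), where only the 0 h cultures reached 1 CPM, so it was tested only because it was higher there. FURIN, a protease of the secretory pathway, rose at 2 h in Angus (1.24, FDR = 1.01e-15) and in Holstein (1.13, FDR = 2.68e-17). PAM, PRCP, CPE and PCSK1N, also on this list, passed in no comparison in which they were tested. PCSK1 and PCSK2 were under the filter on low counts, at no more than 0.186 and 0.561 CPM. The list median between the breeds was 0.32, 0.21 and 0.13 at 0 h, 2 h and 8 h over 6, 4 and 4 genes, where that of all rows was 0.00, -0.01 and 0.01.

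Of the agouti modifiers and relatives of attractin and mahogunin, SDC1 was higher in Holstein at every hour. SDC1 encodes syndecan, a cell surface proteoglycan, and stood at 98.2 ± 15.4 against 38.6 ± 12.6 CPM at 0 h, with log2 fold changes of 1.34, 1.28 and 1.17 (FDR = 2.84e-06, 9.23e-07 and 2.57e-05). Its start overlaps LOC100296479 on the opposite strand, and their counts may be shared. The relatives ATRNL1 (0.54, 0.55 and 0.71) and RNF157 (-0.23, -0.22 and -0.15), as well as SDC3 and TSG101, had FDR above 0.05 at each hour. The list median was 0.23, 0.25 and 0.26 over 6 genes.

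Of the genes of cyclic AMP signalling, the route by which the receptor acts in pigment cells, none of 22 passed between the breeds by any of the 3 tests, though 5, 4 and 5 had an unadjusted p under 0.05 at 0 h, 2 h and 8 h, beside 26.7%, 32.1% and 29.3% of all rows. The medians were 0.08, -0.02 and 0.11. Under LPS, PDE4B, a phosphodiesterase that degrades cyclic AMP, rose in Holstein at 2 h and 8 h (2.21 and 2.78, FDR = 7.12e-14 and 7.81e-30) and in Angus at 8 h (1.53, FDR = 5.24e-09). In Angus at 2 h PDE4B stood at 14.8 ± 14.1 CPM against 4.75 ± 0.857 CPM at 0 h (SD, n = 4), and its log2 fold change of 1.64 passed (edgeR, FDR = 0.0257) but not with the F test (FDR = 0.0929). Without Angus animal 3 that value was 0.69 with FDR = 0.161, and without animal 1 or 2 the FDR was 0.0561 or 0.107. ADCY7, an adenylate cyclase, rose at 2 h in Angus (1.02, FDR = 2.87e-05) and, by less than 2-fold, in Holstein (0.73, FDR = 5.45e-05). GNAS, PRKAR1A, PRKAR2A and PRKAR2B, the most abundant of the rest, stayed within 2-fold in each comparison. The row of PDE4B overlaps MGC137454 on the same strand.

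Of the fibroblast factors that act on pigment cells, 0 of 8, 8 and 9 passed between the breeds, with 3, 2 and 3 genes at an unadjusted p under 0.05 (26.7%, 32.1% and 29.3% of all rows) and 0 by the F test and DESeq2. FGF2 was higher in Holstein by 0.86, 0.95 and 0.88 (FDR = 0.00912, 0.00638 and 0.0012), under the 2-fold limit, and SFRP2 and DKK3 had FDR above 0.05. Under LPS, FGF7 rose in Holstein at 8 h (1.15, FDR = 4.51e-05, and 0.92 without the libraries set apart by COL1A1) and TGFB1 at 2 h (1.07, FDR = 6.9e-19). Both also rose in Angus at the same hours, under the 2-fold limit (0.96, FDR = 0.000111, and 0.96, FDR = 7.49e-07). The row of FGF7 lies inside C10H15orf33. The list medians between the breeds were 0.26, 0.30 and 0.26.

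Of the transcription factors of dorsoventral and limb position, which set where in skin genes such as ASIP are used, 0 of 12 passed between the breeds at 0 h (6 at an unadjusted p under 0.05, beside 26.7% of all rows, and 0 by the F test and DESeq2), 1 of 12 at 2 h (LMX1B, 1.79, FDR = 0.043, not past the threshold with the F test) and 1 of 13 at 8 h (MEOX1, -1.65, FDR = 3.53e-05). LMX1B stood at 1.65 ± 0.401 CPM in Holstein and 0.473 ± 0.503 CPM in Angus at 2 h, and MEOX1 at 2.01 ± 0.618 CPM in Angus and 0.634 ± 0.178 CPM in Holstein at 8 h. Each met the filter on low counts through its high group, so these calls are no support for the list. LMX1B also missed the FDR limit without a filter (0.07) and without Angus animal 1, 2 or 4 (0.0952, 0.103 and 0.11). TBX15, whose loss shifts the agouti boundary in mice, was lower in Holstein at 0 h (-0.46, FDR = 0.0372) by less than 2-fold. TBX15 fell at 2 h in Angus (-1.02, FDR = 1.68e-05, and -0.94 without Angus animal 4). It also fell at 2 h in Holstein, by less than 2-fold (-0.59, FDR = 0.000207). TBX18 was higher in Holstein by 0.84, 0.63 and 0.83, under the 2-fold limit. TBX3 and TWIST2 rose in Holstein at 2 h (1.82 and 1.32) and at 8 h (1.31 and 1.14), whereas MEOX2 fell there at 2 h (-1.12). TWIST2 also rose in Angus, under the 2-fold limit, by 0.77 at 2 h and 0.78 at 8 h (FDR = 0.000797 and 0.00176). In Angus, TBX3 rose (1.45) and MEOX2 fell (-1.27) at 2 h, the latter with FDR = 0.083 without Angus animal 1 and 0.0525 without animal 2. MEOX1 rose at 8 h (2.07), the hour through which it met the filter. PRRX1, PRRX2 and TWIST1 stayed within 2-fold. The list medians between the breeds were -0.15, 0.06 and -0.19.

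Markers of other cells were read beside these values. The 14 melanocyte markers summed to 18.0 to 43.3 CPM (Angus) and 12.7 to 25.8 CPM (Holstein). The enzymes TYR, TYRP1 and DCT reached at most 0.893, 0.0429 and 0.355 CPM, and MLANA 0.11 CPM. Other markers of this list were higher, and 3, 3 and 4 of the 14 could be tested between the breeds at 0 h, 2 h and 8 h. Whether pigment cells were present in the cultures was not tested. Most of the sum was SLC24A5 and MITF, both lower in Holstein at 0 h. MITF had a log2 fold change of -0.88 (FDR = 1.94e-06). SLC24A5 had -1.11 (FDR = 0.00568, but 0.0523 with the F test). Without the libraries set apart by COL1A1, and so with fewer animals, the SLC24A5 FDR was 0.282. Summed ranges per group were 23.9 to 36.9, 18.0 to 26.7 and 28.3 to 43.3 CPM in Angus and 12.7 to 20.5, 13.9 to 16.8 and 19.1 to 25.8 CPM in Holstein at 0 h, 2 h and 8 h. Like ASIP, the sum was higher in Angus without overlap at each hour, and its part in the ASIP difference was not tested.

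The 10 dermal papilla markers summed to 618 to 1230 CPM (Angus) and 1020 to 1470 CPM (Holstein), nearly all of it VCAN, which fibroblasts also express. CORIN, a protease that modifies agouti action, had log2 fold changes of -0.07, -0.03 and -0.05 between the breeds. RSPO3, a secreted Wnt agonist, has 2 rows, with log2 fold changes of -0.79, -0.79 and -0.56 (FDR = 0.00812, 0.0158 and 0.0841) and of -0.72, -0.62 and -0.43 (FDR = 0.0215, 0.046 and 0.264) at the 3 hours. PROM1, which encodes a membrane glycoprotein, had -0.89, -1.0 and -0.77 (FDR = 0.0639, 0.0397 and 0.134) and passed the threshold at 2 h, but not with the F test (FDR = 0.0821). The list median was -0.39, -0.33 and -0.24 over 6 rows tested of 11, and the part of these markers in the ASIP difference was not tested. The defining papilla markers SOX2 and ALPL reached at most 0.591 and 0.46 CPM. Keratinocyte markers summed to 1.46 to 2.18 CPM (Angus) and 1.81 to 16.1 CPM (Holstein). KRT1 was at 0 in each library, but KRT5 and KRT14 reached 10.2 and 2.76 CPM. Their means at 0 h were 2.51 ± 4.48 and 0.416 ± 0.704 CPM in Holstein. In Angus they were 0.0381 ± 0.0301 and 0.00241 ± 0.00482 CPM (SD, n = 4). Both genes were under the filter on low counts in every comparison. Endothelial markers summed to 2.03 to 5.22 CPM and leukocyte markers to 2.15 to 5.69 CPM over all libraries. Fibroblast markers summed to 42900 to 93100 CPM (Angus) and 66500 to 131000 CPM (Holstein), and pericyte and muscle markers, led by ACTA2, to 2950 to 6940 and 4020 to 8110 CPM.

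Among 12957 genes, the level most like that of ASIP over the 24 samples was that of LOC100847727 (chromosome 4, 89565591 to 89683316), with Pearson's r = 0.983 on log2(CPM + 1). It ran from 15.7 to 28.6 CPM (Angus) and from 4.51 to 6.92 CPM (Holstein). Next were FBP1 (0.934), which encodes a gluconeogenic phosphatase, NIPSNAP3A (0.913), LOC100848103 (0.913) and REEP5 (0.908). Most opposite were LOC509006 (-0.945), ISLR2 (-0.932) and LOC786974 (-0.929). The samples fall into separate clusters by breed and come from 8 animals, so these values mainly rank genes by how cleanly they separate the breeds.

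The mean of each group was then subtracted, so that only the differences between animals within a group counted. By Pearson's r, LOC100848331 (0.942), GPC5 (0.926) and LOC785982 (0.904) were then closest to ASIP. LOC100848331 and LOC785982 lie close together on chromosome 9 (88634309 to 88639908 and 88632678 to 88633704). Over all 24 samples these 2 had r = -0.46 and -0.456 with ASIP. GPC5, which encodes a cell surface glypican, was also like ASIP over all samples (0.867). It had r = 0.90 within the 12 Angus samples and 0.86 within the 12 Holstein samples, each from 4 animals. LOC100847727 kept a value of 0.669 after the subtraction, and FBP1 and NIPSNAP3A fell to 0.31 and -0.058. These are descriptions over samples that share animals.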

How the data were processed

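RNA had been sequenced from 24 poly-A libraries, made from 4 Angus and 4 Holstein fibroblast cultures sampled at 0 h, 2 h and 8 h. The authors trimmed and filtered the reads, aligned them to the bovine genome UMD v3.1 with NextGENe 2.3.4 and deposited 1 table per library with whole-number read counts for each gene span and each stretch between genes. The deposited tables also hold the lowest, highest and average coverage of each row, from which covered bases per count were computed. CASAVA 1.7 is named in the submitters' processing notes. Rows are whole gene spans, so exons, introns and UTRs are not separated, and strand-specific counting is not given in the sources used here. Between 92.88% and 96.54% of reads matched.

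Counts were tested with edgeR 4.0.16 in R 4.3.3 (TMM scaling, likelihood-ratio test, Benjamini-Hochberg adjustment over all rows tested), keeping rows at 1 CPM or more in at least 50% of the samples compared. There were 9 comparisons: breed at each hour, LPS against 0 h in each breed at 2 h and 8 h, and the breed by LPS interaction at 2 h and 8 h. The 95% intervals are normal intervals from the SE on the log2 scale. Alternatives were edgeR's quasi-likelihood F test, DESeq2 1.42.0, no filter, a replicate block, all 24 samples in 1 model, leaving out each animal, and leaving out 4 libraries. Replicates were separate animals, and no pair of libraries agreed within sampling noise (36 pairs, chi-square per degree of freedom at least 48.4). Same-numbered samples of a breed came from the same animal: their deviations from the group means correlated at 0.55 or more between 0 h and 2 h and at 0.53 or more between 0 h and 8 h (8 pairs each). The scripts were tested on simulated data.

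The members and gene lists were chosen with earlier results of these data known. Named were all members, genes within 500 kb of ASIP, and in each list the genes past the threshold in any comparison with up to 4 more of the highest mean level. Some list genes that this rule names are not reported here. Correlations used log2(CPM + 1). Methylation data were not analysed here.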

Additional observations from a re-analysis of the deposited data

Results flagged for a closer look

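ASIP in the culture of Angus animal 1 at 2 h stood at 23.7 CPM, far below the other 3 Angus cultures at that hour, which lay between 36.9 and 37.6 CPM. Its gap to the nearest culture was 0.945 of the range of the group, above Dixon's 95% limit for 4 samples. The same animal was the lowest Angus culture at 0 h and 8 h as well.

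The interval after ASIP in the culture of Holstein animal 2 at 8 h stood at 0.298 CPM (24 counts), below the other 3 at 0.54 to 0.589 CPM, with a gap of 0.832 of the range. Over 48 groups of 4 samples, 2 values stood apart in this way, where chance gives about 1 in 20 groups.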

How the results depend on the processing

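ASIP was past the threshold between the breeds in each of the 44 alternative tests, with log2 fold changes from -3.99 to -3.29 at 0 h, -4.14 to -3.31 at 2 h and -3.97 to -3.24 at 8 h when covered bases are included (-3.31 at 2 h with covered bases in place of counts). The highest FDR, 0.00358, 0.00107 and 0.00471, came from the F test. Under LPS and in the interaction, 0 of 78 alternatives for ASIP had FDR under 0.05 (lowest 0.172).

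Of 825 alternative values for the members, 39 changed sign while above the FDR limit both times. At 0 h, POMC lost its call without a filter (FDR = 0.059) and without 4 single animals in turn (0.0613 to 0.0675), and MGRN1 without a filter (0.135) and without 6. The replicate block in the LPS comparisons is the animal, and the calls it added are given with the results, with those lost without the 4 libraries. In the breed comparisons animals share only a number (mean correlation -0.09). With that block at 0 h, MGRN1 (FDR = 0.131) and POMC (0.0523) were lost and KITLG (0.86, FDR = 0.0373) was gained. After seeing the data, a block without the 4 libraries set apart by COL1A1 was added: KITLG in Angus at 2 h was then -1.51 (FDR = 0.046). Only Angus animals 1 and 2 had both hours in that fit.

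Counts over all rows moved more. Between the breeds at 0 h, 778 became 259 without those 4 libraries, and so with fewer animals. Leaving out 1 animal gave 515 (without Angus 4) to 1120 (without Angus 3) at 0 h, 446 to 1129 at 8 h (672 with all animals, the same 2 animals), 33 (without Angus 4) to 80 (without Angus 3) for the interaction at 2 h and 2 (without Holstein 4) to 62 (without Angus 3) at 8 h. In Angus at 8 h, 178 became 90 with the F test and 308 with the block without the 4 libraries. The interaction at 2 h (56) became 16 with the F test and 126 with the replicate block. The interaction at 8 h (20) became 0 with the F test, 100 with the replicate block, 13 with all 24 samples in 1 model and 6 without the 4 libraries. Near ASIP, leaving out 1 animal gave 1 to 2 rows at 0 h, 1 to 2 at 2 h and 1 to 2 at 8 h. Leaving out the 4 libraries gave 2 at 2 h. Which row was the second at 2 h is not given here. The interval after ASIP averaged 0.787 CPM at that hour with all animals, under the limit of 1 CPM. By Spearman's rank correlation, 1 of the first 5 genes most like ASIP stayed among the first 5. The cause of these moves was not tested. Depth limits MC1R, KITLG at 2 h and the interval after ASIP in Holstein.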
